A study of Homo sapiens with 12 samples.

Results

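The transcriptional response of HCC1806 cells to doxorubicin was described in cells that carried a non-targeting siRNA. HCC1806 is an established triple-negative breast cancer line. All 17013 genes of the deposited table were used, in 6 of its 12 libraries, namely 3 from siNT cells given 1 µM doxorubicin for 24 h and 3 from siNT cells given vehicle. Both groups had been transfected with the control siRNA 24 h before the drug was added, and all 12 libraries were made by poly(A) selection and sequenced as read pairs. The remaining 6 libraries are the same pair of treatments in cells transfected with a pool of siRNAs against MLK4 (siMLK4), a stress-activated kinase encoded by MAP3K21. They also entered the statistical fit and the means taken over all 12 libraries. The labels give DMSO for the vehicle cells and mark them as time 0, whereas the study's methods call them untreated. The legend of a supplementary figure has DMSO or the drug given for 24 h, which would be a common harvest time. These sources differ, so that time was not taken for granted. Transfections were done in triplicate, and nothing states whether these were separate cultures, so p-values measure the spread between these libraries, which may be technical. The siNT libraries held 17567050, 19239066 and 18082509 reads on the listed genes in vehicle and 18384153, 16759025 and 17275064 with doxorubicin.

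Doxorubicin is an anthracycline. It intercalates into DNA, traps topoisomerase II on cut DNA so that double-strand breaks persist, and displaces histones from chromatin. Broken DNA activates the kinases ATM and ATR, which halt the cell cycle, in part through cyclin-dependent kinase inhibitors such as CDKN1A. In breast cancer cells DNA damage is also known to start the secretion of inflammatory cytokines, largely through the transcription factor NF-κB.

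The cells had the basal profile that the line is known for. In vehicle, the basal keratin KRT5 had 17185, 22489 and 22959.8 normalized reads (reads recovered from the table, divided by the size factor of the library), KRT14 had 6932, 6029.8 and 5041 and the receptor EGFR had 4218, 5939 and 8399. Luminal hormone receptors were low, with 72.8, 97.6 and 108 for ESR1 and 0 in each vehicle library for PGR. Of the stromal markers fixed for this check, COL1A2, COL3A1, DCN and PECAM1 were not among the listed genes, and neither was the T cell marker CD3E. A separate gene list of 11 stromal markers, not the same as the fixed set, had 6 measured members. Of these 6, LUM fell from 139, 108 and 168 to 16.6, 21.4 and 25.3, ACTA2 rose from 11.7, 19.7 and 18.0 to 179, 172 and 102 and PDGFRA from 4.7, 1.04 and 1.12 to 20.3, 25.4 and 28.4, and the summed level of the 6 was 517, 425 and 506 in vehicle and 529, 508 and 449 with doxorubicin. None of the 3 measured members of a list of 10 immune markers was called (2 were higher on the log2 scale of normalized reads plus 1), and their summed level was 38.8, 46.7 and 49.4 and 69.2, 61.1 and 75.03. The part of other cells in the results was not tested.

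Doxorubicin changed the level of 22.7% of the genes. Of 17013 genes, 2060 (12.1%) rose and 1799 (10.6%) fell, and these are the background shares against which groups below are read unless another share is named. Calls came from limma on the variance-stabilized values and needed a Benjamini-Hochberg adjusted p below 0.01 together with a log2 fold change beyond 0.75 in either direction. Fold changes given as log2 are on that scale, which compresses the changes of genes with few reads, so normalized reads are given beside them. The first principal component of the 6 libraries held 82.2% of the variance and separated the treatments, with vehicle libraries at −44.3, −43.1 and −42.9 and doxorubicin libraries at 48.3, 46.9 and 35.1. The third doxorubicin library lay nearest to vehicle. A fall can reflect fewer cells that carry an RNA or less of it per cell, which bulk libraries cannot tell apart.

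More genes were detected after doxorubicin. The vehicle libraries had 341, 313 and 354 listed genes without a read, against 27, 42 and 40 with the drug. In all 3 vehicle libraries 734 genes had at most 3 reads, among them 339 protein-coding genes and 324 lncRNAs, while 88 genes were as low in all 3 doxorubicin libraries. The table holds only expressed genes, since the highest of a gene's 4 group means was never below 10.67 normalized reads, so that a gene low in vehicle is listed only because it is higher elsewhere. Shares of gene classes are therefore given below for genes whose normalized reads averaged 50 or more across all 12 libraries. This mean includes the doxorubicin libraries, so a gene low in vehicle can still pass through its level with the drug. The filter thus does not remove that limit. Of 12380 genes over this mean, 10.5% rose and 13.6% fell. The 1000 most abundant genes took 52.6, 51.9 and 51.5% of the reads in vehicle and 47.9, 46.9 and 48.4% with doxorubicin, without overlap between the groups. When libraries were scaled to their total reads, the median of all genes moved from 0.00 to 0.18 on the log2 scale, so directions below are relative to the median gene. Under that scaling 2859 of all 17013 genes rose and 1094 fell. List counts given below for total-read scaling are to be read against these totals, since the calls of all genes shifted in the same way.

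Long non-coding RNAs (lncRNAs) rose more often than protein-coding genes. Among genes over the mean of 50, 187 of 631 lncRNAs rose (29.6%) and 42 fell (6.66%), whereas 1073 of 11459 protein-coding genes rose (9.36%) and 1622 fell (14.2%). The median log2 fold change was 0.29 for lncRNAs and −0.11 for protein-coding genes, and scaling to total reads turned the second to 0.11. The difference was also present among genes of like level up to 1000 normalized reads. Between 50 and 200 normalized reads, 32.2% of 466 lncRNAs and 16.7% of 2108 protein-coding genes rose, and between 200 and 1000 the shares were 23.7% of 139 and 9.81% of 5098. Between 1000 and 5000, 4 of 23 lncRNAs rose and 5 fell, with a median of −0.23 against −0.12 for protein-coding genes (0.01 and 0.11 under total-read scaling), and none of the 3 lncRNAs above that was called. LncRNAs took 1.09, 0.955 and 1.02% of the reads in vehicle and 1.43, 1.29 and 1.28% with doxorubicin.

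**Figure D1:**
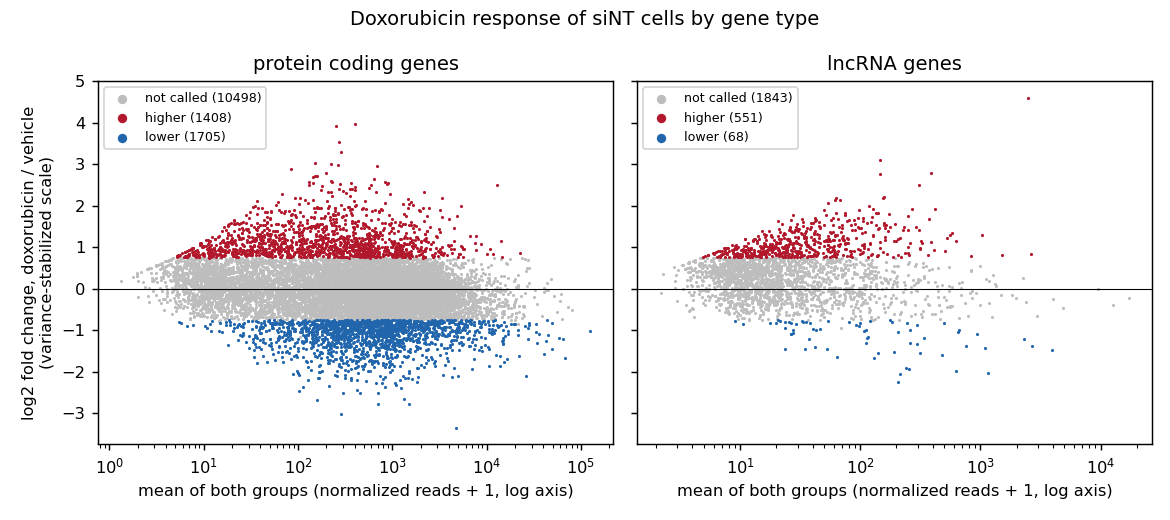
Log2 fold change of each gene in siNT cells (doxorubicin against vehicle, variance-stabilized scale) against the mean of the 2 groups in normalized reads plus 1 on a log axis, for protein-coding genes and lncRNAs; red and blue points passed the test. Called lncRNAs lie mostly above 0 (551 higher and 68 lower), and called protein-coding genes lie on both sides (1408 higher and 1705 lower). These counts include genes listed only because they are high after doxorubicin. Over a mean of 50 normalized reads they are 187 and 42 for lncRNAs and 1073 and 1622 for protein-coding genes. That mean also counts the doxorubicin libraries, so some such genes can remain.

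The share of lncRNAs that rose differed with their position relative to coding genes, a difference that was not tested. Among lncRNAs over the mean of 50, 86 of the 207 that start within 1 kb of the start of a coding gene on the other strand rose (41.5%), and 3 fell. Their median log2 fold change was 0.62, and the medians of the single doxorubicin libraries against the vehicle mean were 0.77, 0.59 and 0.53. On the log2 scale of normalized reads plus 1, 111 of these lncRNAs rose and 5 fell, with a median of 0.98. Of 158 that overlap a coding gene on the other strand elsewhere, 50 rose (31.6%) and 13 fell, while of 227 that overlap no coding gene, 46 rose (20.3%) and 24 fell (10.6%). The coding partners at the shared starts did not share this profile. Of 207 partners, taken once for each lncRNA, 15 rose and 24 fell, with a median of −0.08, and 69 of the 86 lncRNAs that rose had a partner that did not pass the test. Reads had been counted by strand, and the part that reads from the opposite strand have in these values was not tested.

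Among protein-coding genes, the response was graded by exon number. Over the mean of 50, 37 of 168 genes with 1 exon rose (22.02%) and 6 fell (3.57%), with a median log2 fold change of 0.30. At the other end, 58 of 957 genes with over 25 exons in the transcript that has most rose (6.06%) and 156 fell (16.3%), with a median of −0.24. Under total-read scaling these medians were 0.50 and −0.01. On the variance-stabilized scale, the median level of the genes over 25 exons minus that of the single-exon genes was 1.22, 1.63 and 1.87 in the vehicle libraries and 0.575, 0.985 and 0.920 in the doxorubicin libraries. The 2 groups did not overlap, and the exact two-sided permutation p was 0.1, the smallest that 3 libraries against 3 allow. Within the pairs of equally numbered libraries the value was lower with doxorubicin by 0.641, 0.644 and 0.948, and the exact paired permutation p was 0.25, the smallest that 3 pairs allow. The single-exon genes include histones, and without these 30 of 156 rose (19.2%), with a median of 0.28. By genomic span, 17 of 374 genes of 300 kb and over rose (4.55%) and 78 fell (20.9%), with a median of −0.28 (−0.06 under total-read scaling), whereas 255 of 1990 genes under 10 kb rose (12.8%) and 311 fell (15.6%), with a median of −0.08 (0.12 under that scaling). The median level of the longest minus that of the shortest was −0.647, −0.279 and 0.0154 in vehicle and −0.806, −0.404 and −0.566 with doxorubicin, so that the groups overlapped (exact two-sided permutation p = 0.3), also over all listed coding genes (p = 0.3). Within the equally numbered pairs it was lower with doxorubicin in 3 of 3 (differences of −0.159, −0.125 and −0.582, exact paired permutation p = 0.25, again the smallest possible). Over all listed coding genes, the median fold change of the longest minus that of the shortest was −0.10 on the log2 scale. Leaving out 1 library at a time gave −0.23 to 0.03, so its sign was not stable. Abundance was graded as well. Of 588 coding genes averaging 5000 normalized reads or more, 17 rose (2.89%) and 127 fell (21.6%), with a median of −0.34 (−0.11 under total-read scaling). Exon number and abundance were not separated from each other.

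**Figure D2:**
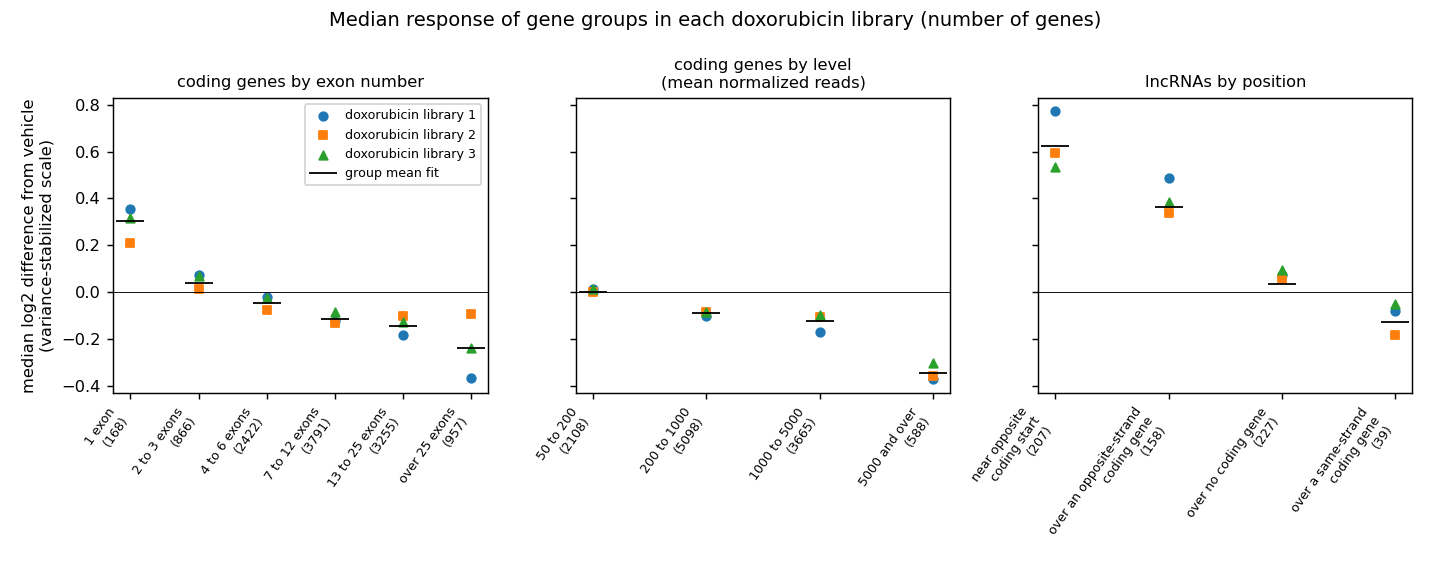
Median log2 difference of each doxorubicin library from the vehicle mean (points; lines show the median of the fitted fold changes) for protein-coding genes by exon number and by level, and for lncRNAs by position, among genes with a mean of at least 50 normalized reads, with the number of genes under each group. Medians fall from 0.30 for single-exon genes to −0.24 for genes over 25 exons (0.50 to −0.01 under total-read scaling), and from 0.62 for lncRNAs that start near an opposite-strand coding start to −0.13 for those over a coding gene on their own strand (0.01 under total-read scaling).

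On the variance-stabilized scale, the lncRNA with the largest fold change was LINC00910 (ENSG00000188825, − strand, chr17:43338741-43389226, GRCh38). It had 124.5, 148 and 173 normalized reads in vehicle and 5905, 4734 and 3855 with doxorubicin, 32.5-fold higher (log2 fold change 4.60, SE 0.18, adjusted p = 2.7e-09). Among the next were MIR130AHG, the host transcript of a microRNA, with 2.35, 4.15 and 5.61 in vehicle and 289, 279.9 and 287 with doxorubicin (70.6-fold in normalized reads, more than LINC00910, but 3.09 on the log2 scale, which compresses low levels), and RALY-AS1, antisense to the RALY locus, with 55.2, 69.6 and 53.9 and 645, 582 and 448. Every doxorubicin library exceeded every vehicle library for these 3 lncRNAs, as the rule by which they were named required. The unnamed lncRNAs ENSG00000276900 (2.80) and ENSG00000225335 (2.75) complete the 5 strongest. On the side that fell, PICSAR, known from squamous carcinoma, went from 488, 376 and 237 to 52.6, 40.7 and 28.4 normalized reads (log2 fold change −2.25, SE 0.20, adjusted p = 6.6e-07). LINP1, a lncRNA linked to joining of broken DNA ends in triple-negative breast cancer, went from 405, 426 and 281 to 53.5, 35.6 and 77.1, 6.69-fold lower (log2 fold change −2.05, SE 0.19, adjusted p = 1.1e-06). LINC02967, LINC01133 and LINC01503 fell by 2.03, 1.98 and 1.93 on the log2 scale.

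Several of the coding genes that rose most were almost silent in vehicle. TEX14, a gene of intercellular bridges in germ cells (− strand, chr17:58556678-58692055), had 11.7, 8.31 and 16.8 normalized reads in vehicle and 926, 972 and 493 with doxorubicin (log2 fold change 3.97, SE 0.25, adjusted p = 4.8e-08). IL6, the pro-inflammatory cytokine (+ strand, chr7:22725884-22732002), had 4.7, 2.08 and 1.12 in vehicle and 468, 483 and 551 with doxorubicin (log2 fold change 3.92, SE 0.21, adjusted p = 1.6e-08). CCM2L, a relative of a vascular malformation gene, had at most 1 read in any vehicle library and 219.6, 159.8 and 123.7 normalized reads with doxorubicin, at least 50.3-fold higher when vehicle is set to 3 reads per library. Cell surface and secreted proteins were among them. DLL4, a Notch ligand, rose 28.8-fold from 24.7, 19.7 and 12.3 to 646, 577 and 409.6 normalized reads (log2 fold change 3.28, SE 0.17, adjusted p = 1.6e-08). CACNA1G, a T-type calcium channel subunit, went from 3.52, 7.27 and 4.49 to 333, 338 and 207, and the neuronal pentraxin NPTX1 from 18.8, 11.4 and 23.6 to 454, 487 and 339.6. PCDH10, a protocadherin (2.79), DIO3, which inactivates thyroid hormone (2.71), TMEM158 (3.53), PBLD (2.99) and SHISA2 (2.71) rose as well, on the log2 scale. ID2, an inhibitor of basic helix-loop-helix transcription factors, had 103, 125 and 125 normalized reads in vehicle and 1383, 1187 and 1161 with doxorubicin (log2 fold change 2.95, SE 0.12, adjusted p = 2.7e-09).

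The coding genes that fell most had varied roles. DDIT4, an inhibitor of mTORC1 signalling (+ strand, chr10:72273919-72276036), had 12216, 4061 and 9876 normalized reads in vehicle and 722, 572 and 932 with doxorubicin, 11.8-fold lower (log2 fold change −3.35, SE 0.42, adjusted p = 1.5e-05). SLC19A1, the reduced folate carrier, went from 598, 651 and 389.5 to 39.7, 28.5 and 20.3, 18.5-fold lower (log2 fold change −3.01, SE 0.18, adjusted p = 3.7e-08). In both genes all doxorubicin libraries lay below all vehicle libraries, as the rule by which they were named required. The second vehicle library was the lowest of its group for DDIT4. EHD2, a protein of caveolae, went from 2231, 2975 and 2716 to 311, 288 and 440.0 (log2 fold change −2.77, SE 0.17, adjusted p = 4.2e-08). GPSM1, a regulator of G-protein signalling (−2.67), the kinesin KIF21B (−2.51), the fucosyltransferase FUT3 (−2.50), DIPK1B (−2.47), the intraflagellar transport gene IFT172 (−2.44) and C7orf50 (−2.39) fell too. So did the annexins ANXA6 (−2.52) and ANXA8 (−2.65), and the value of ANXA8 is uncertain because a near-identical copy, ANXA8L1, can share its reads.

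**Figure D3:**
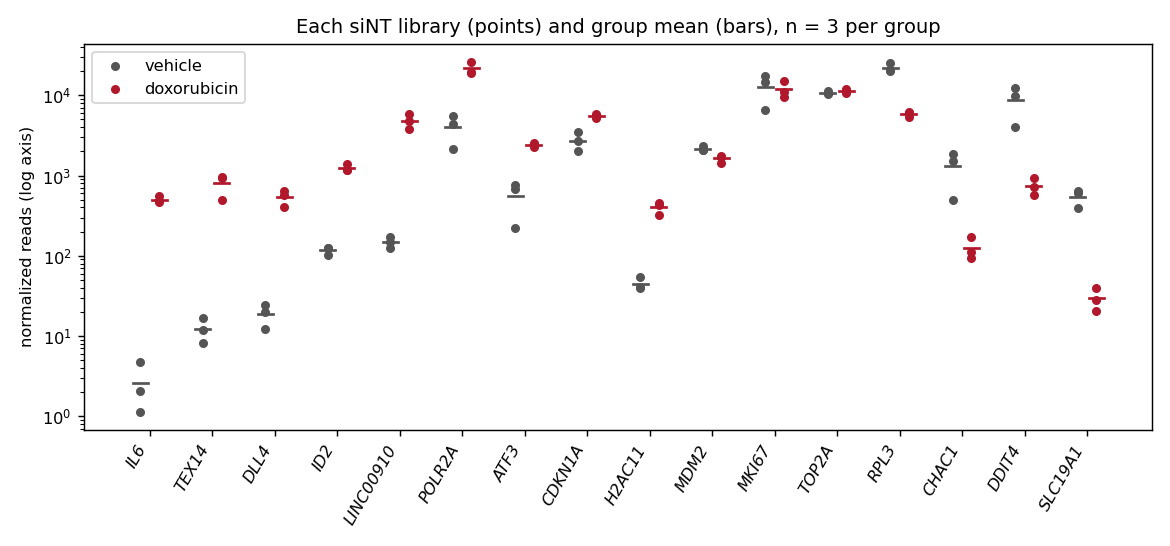
Normalized reads (log axis) of named genes in each siNT library, with vehicle in grey, doxorubicin in red and bars at the group means of 3 libraries. IL6, TEX14 and LINC00910 rise from their vehicle levels without overlap, MKI67 and TOP2A overlap between the groups, and SLC19A1, DDIT4 and CHAC1 lie lower with doxorubicin.

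CDKN1A rose, and genes of break signalling and repair were mostly not called. CDKN1A, which blocks cyclin-dependent kinases, had 3465, 2005 and 2657 in vehicle and 5846, 5286 and 5631 with doxorubicin, 2.06-fold higher (log2 fold change 1.06, SE 0.16, adjusted p = 8.9e-05). MDM2, which encodes a ubiquitin ligase, did not pass the test, with 2081, 2084 and 2323 in vehicle and 1439, 1743 and 1711 with the drug (log2 fold change −0.40, SE 0.12, adjusted p = 0.013). GDF15, a secreted stress cytokine, spanned 1657, 223 and 854 in vehicle and 512, 408 and 508 with the drug (log2 fold change −0.52, SE 0.55, adjusted p = 0.44), so its vehicle libraries enclosed the doxorubicin libraries. These are 3 single genes from the preset list, and the share of genes of their kind that rose or fell is not reported here. None of 54 genes of break signalling and repair rose and 6 fell (11.1%), near the background share, with a median of −0.16 that scaling to total reads turned to 0.05. Those that fell include H2AX, the histone phosphorylated at breaks (1316, 1541 and 942 in vehicle and 403, 272 and 302 with doxorubicin), the checkpoint kinase CHEK2 (−1.72) and NBN (−1.65), a subunit of the break sensor complex with MRE11.

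Cell cycle genes did not move as a block. Of 52 genes of DNA replication, 7 rose (13.5%, 15 when scaled to total reads) and none fell. GINS4, a subunit of the replicative helicase complex, had 515, 671 and 516 normalized reads in vehicle and 1968, 1903 and 1648 with doxorubicin (log2 fold change 1.61, SE 0.15, adjusted p = 8.8e-07), and E2F2 (1.35) and cyclin E1, CCNE1 (1.22), rose as well. Of 56 genes of G2/M and mitosis none rose and 5 fell (8.93%, 1 when scaled to total reads and 3 without the first doxorubicin library). Their median of −0.17 became 0.06 under total-read scaling. The mitotic kinase PLK1 went from 1205, 1316 and 1269.7 to 479.9, 511 and 536 normalized reads (log2 fold change −1.23, SE 0.11, adjusted p = 5.9e-07), and CENPA (−0.98) and CCNA2 (−0.88) fell with it, although both of these lost their call under total-read scaling. The proliferation marker MKI67 had 6544, 14525 and 17524 in vehicle and 9398, 15043 and 11100.0 with doxorubicin, and the groups overlapped (log2 fold change −0.03, SE 0.35, adjusted p = 0.95). TOP2A, which encodes the drug's target in dividing cells, had 10538, 10518 and 11315 and 10806, 11395 and 12032 (log2 fold change 0.08, SE 0.10, adjusted p = 0.51). TOP2B, the other form, had 4621, 4931 and 5284 and 2886, 3707 and 3169, a difference below the fold threshold (log2 fold change −0.60, SE 0.12, adjusted p = 0.00077). Of 15 cyclin-dependent kinase inhibitors and G1 cyclins, 5 rose (33.3%, 7 under total-read scaling and 3 with library weights) and none fell (1 without the first or the third vehicle library or the third doxorubicin library), and CDKN2C, an inhibitor of CDK4 and CDK6, rose 3.79-fold (log2 fold change 1.64, SE 0.19, adjusted p = 6.2e-06).

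Among lists with 15 or more members, the histone genes held the largest share that rose. Of 45 replication-dependent histone genes measured, 23 rose (51.1%) and none fell, with a median log2 fold change of 0.82. On the log2 scale of normalized reads plus 1, 33 rose and the median was 1.70. Of the 20 that averaged 50 normalized reads or more, 16 rose. H2AC11 (+ strand, chr6:27133043-27133535) had 41.1, 39.5 and 53.9 normalized reads in vehicle and 430.0, 458 and 323 with doxorubicin, 9.01-fold higher (log2 fold change 2.32, SE 0.15, adjusted p = 7.3e-08). H3C10 went from 56.4, 34.3 and 29.2 to 331, 266 and 237 and H2AC25 from 109, 63.3 and 67.4 to 492, 323 and 339. Messages of this class normally end in a stem-loop without a poly(A) tail and these libraries were poly(A)-selected, so the values count only transcripts that were captured, and near-identical copies can share reads. Of 11 replication-independent histone genes, 3 rose and 2 fell (1 under total-read scaling), with a median of 0.10 that was −0.04 and −0.03 without the second and the third vehicle library and 0.34 under total-read scaling. Of these H2AJ, a variant with an ordinary poly(A) tail, rose 3.97-fold (log2 fold change 1.94, SE 0.19, adjusted p = 2e-06) and H3-3B 1.79-fold (log2 fold change 0.85, SE 0.13, adjusted p = 7.7e-05).

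Inflammatory genes moved in both directions. Of 53 cytokines, chemokines and growth factors, 13 rose (24.5%) and 8 fell (15.1%), both above the background shares, although 5 fell without the first vehicle library, without the second doxorubicin library or under total-read scaling. Besides IL6, TNFSF15, a TNF family ligand, rose from 98.6, 58.1 and 127 to 508, 655 and 678 normalized reads (log2 fold change 2.24, SE 0.19, adjusted p = 5.6e-07), and IL24 from 101, 88.2 and 46.0 to 358, 413 and 307 (log2 fold change 1.73, SE 0.18, adjusted p = 3e-06). The neutrophil chemokine CXCL1 had 251, 152 and 177 in vehicle and 442, 452 and 534 with doxorubicin (log2 fold change 1.13, SE 0.20, adjusted p = 0.00022), and CXCL8 had 1058, 493 and 729 and 1359, 1541 and 1492 (log2 fold change 0.96, SE 0.26, adjusted p = 0.0063). CXCL8 lay close to the thresholds and lost its call without any 1 of 5 of the 6 siNT libraries (all but the first of vehicle). CXCL6 (35.2, 43.6 and 35.9 and 74.7, 76.3 and 76.0, log2 fold change 0.57) and IL12A (30.5, 21.8 and 28.1 and 52.6, 48.9 and 51.7, log2 fold change 0.47) stayed below the fold threshold on the variance-stabilized scale. In normalized reads they were 1.98-fold and 1.91-fold higher without overlap between the groups, and both were called on the log2 scale of normalized reads plus 1 and by limma-voom. CD274, which encodes the immune checkpoint ligand PD-L1, rose 1.84-fold (log2 fold change 0.75, SE 0.16, adjusted p = 0.00092), and lost its call without either of 2 vehicle or 2 doxorubicin libraries. On the other side, the angiogenic VEGFA went from 5956, 2282 and 5321 to 1253, 1102 and 1259 (log2 fold change −1.75, SE 0.26, adjusted p = 6.9e-05), IL18 from 4294, 2972 and 2974 to 849.9, 696 and 1116 (log2 fold change −1.88, SE 0.24, adjusted p = 1.5e-05), and FGFBP1, a carrier of fibroblast growth factors, fell by 2.17 on the log2 scale.

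NF-κB genes as a list moved little. Of 39 subunits, inhibitors and targets, 5 rose (12.8%, near the background) and 2 fell, with a median of 0.20 (0.39 under total-read scaling, where 7 rose and 1 fell, and 0.10 without the second vehicle library). The number that fell was also 1 without the first vehicle library, without the second doxorubicin library and with library weights. ICAM1, an adhesion molecule for leukocytes, rose 3.76-fold (log2 fold change 1.63, SE 0.11, adjusted p = 7e-08), while PTGS2, which encodes the prostaglandin synthase COX-2, went from 3173, 2081 and 4061 to 1084, 1417 and 1543 (log2 fold change −1.14, SE 0.20, adjusted p = 0.00024), a call lost when libraries were weighted by their spread. The letters of an NF-κB site (GGG, any 2 bases, then TTTCC) were searched on both strands of RefSeq promoters, from 250 bases before to 50 after the start (GRCh38.p14). They were in 1.91% of 35114 promoters and in 2.78% of the 12030 listed genes with an entry. At least 1 promoter of 14 of the 33 list members with an entry held them, namely 2 of the 5 that rose, 0 of the 2 that fell and 12 of 26 that were not called. In the list of cytokines, chemokines and growth factors, which holds CXCL6 while the NF-κB list does not, 10 of 43 members with an entry had them. These were 4 of 12 that rose, 1 of 6 that fell and 5 of 25 not called. The windows of 3 promoters are shown because their genes lie on both sides of the call. IL6 and CXCL1 passed the test and CXCL6 did not, and the matched letters are in capitals on the gene's strand.
IL6, chr7:22727117-22727146, + strand: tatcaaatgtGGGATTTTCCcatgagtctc
CXCL1, chr4:73869304-73869333, + strand: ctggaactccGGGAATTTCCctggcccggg
CXCL6, chr4:73836578-73836607, + strand: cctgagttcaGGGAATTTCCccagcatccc
A match is a description of the letters and not evidence that the factor binds.

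Interferon-stimulated genes rose more often than the background. Of 60 measured, 17 rose (28.3%) and 5 fell (8.33%, 2 under total-read scaling), with a median of 0.24. HERC5, a ligase for the ubiquitin-like ISG15, went from 176, 166 and 144 to 931, 902 and 754 normalized reads (log2 fold change 2.10, SE 0.11, adjusted p = 1.9e-08), and OASL rose 5.45-fold (log2 fold change 1.70, SE 0.14, adjusted p = 3e-07). The class I antigen gene HLA-B rose 3.2-fold (log2 fold change 1.67, SE 0.18, adjusted p = 4.6e-06), with the reservation that related HLA genes can share reads. The antiviral synthetases OAS1 and OAS2 fell instead, OAS1 from 383, 465 and 482 to 67.4, 42.8 and 102 (log2 fold change −2.09, SE 0.21, adjusted p = 1.8e-06).

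Immediate early genes were the second most often raised of the lists with 15 or more members. Of 40, 17 rose (42.5%) and 1 fell, with a median of 0.52. CCN2, a matricellular protein and a known target of TGF-β and YAP, had 345, 226 and 312 in vehicle and 1728, 1584 and 1518 with doxorubicin (log2 fold change 2.28, SE 0.15, adjusted p = 8.4e-08), and the AP-1 subunit FOSB had 38.8, 29.1 and 34.8 and 306, 310.5 and 160.2 (log2 fold change 1.93, SE 0.28, adjusted p = 4.6e-05). FOSL1, another AP-1 subunit, was the 1 member that fell (2131, 2302 and 2373 and 1123, 1181 and 1306, log2 fold change −0.89), and it lost its call under total-read scaling, where 19 rose and none fell. Of 41 genes of the TGF-β and BMP pathways, 9 rose (21.95%) and 3 fell (12 and 2 under total-read scaling). The ligand TGFB2 (1.73) and LTBP1 (2.51), which stores latent TGF-β, rose, and SKI, a repressor of SMAD signalling, went from 1083, 1437 and 1391 to 256, 254 and 184 (log2 fold change −2.26, SE 0.23, adjusted p = 2.1e-06). Of 26 genes of epithelial-mesenchymal transition 7 rose (26.9%) and 1 fell. The transcription factor SNAI1 went from 11.7, 18.7 and 11.2 to 332, 318 and 176 normalized reads (log2 fold change 2.55, SE 0.21, adjusted p = 3.6e-07), vimentin, VIM, from 21.1, 14.5 and 20.2 to 150.4, 121 and 137 (log2 fold change 1.62, SE 0.14, adjusted p = 8.1e-07), and fibronectin, FN1, rose 2.34-fold (log2 fold change 1.22, SE 0.24, adjusted p = 0.0006), while E-cadherin, CDH1, was not called (log2 fold change −0.28, SE 0.14, adjusted p = 0.1).

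**Figure D4:**
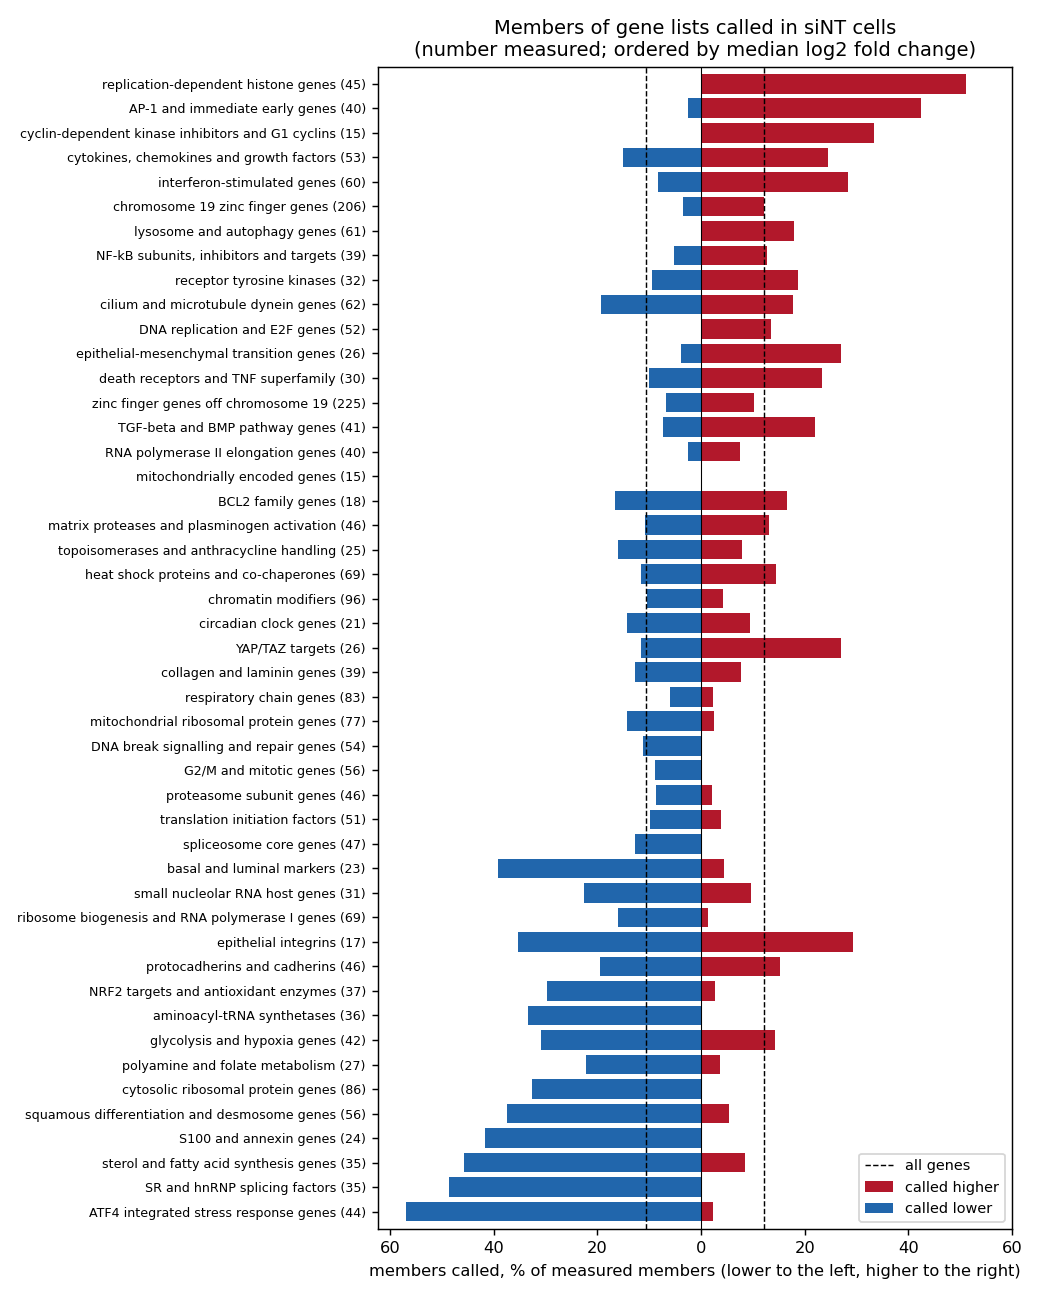
Share of the measured members of the lists shown, each with 15 or more members, that were called higher (red, right) or lower (blue, left) in siNT cells with doxorubicin, ordered by median log2 fold change, with the number measured in brackets and dashed lines at the shares of all genes (12.1 and 10.6%). Replication-dependent histone genes (51.1%) and immediate early genes (42.5%) reach farthest to the right, and ATF4 integrated stress response genes (56.8%) farthest to the left.

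The integrated stress response was the list that fell most often in the main fit, though not with library weights. In this pathway, amino acid shortage or protein misfolding leads to translation of the factor ATF4, which raises genes of amino acid synthesis and transport and the tRNA synthetases. Of 44 members, 25 fell (56.8%) and 1 rose, with a median log2 fold change of −0.97. The medians of the single doxorubicin libraries against the vehicle mean were −1.09, −0.93 and −0.85. ATF4 itself, named outside the rule after its values were seen, went from 16688, 8786 and 11666 to 4177, 3926 and 4739 normalized reads (log2 fold change −1.48, SE 0.25, adjusted p = 0.00022). CHAC1, which degrades glutathione, went from 1872, 494 and 1529 to 112, 93.7 and 173, 10.3-fold lower (log2 fold change −2.78, SE 0.49, adjusted p = 0.00024), and the stress regulator NUPR1 from 560.1, 76.8 and 289 to 25.8, 21.4 and 44.6 (log2 fold change −2.005, SE 0.52, adjusted p = 0.0045), a call that was lost without any 1 of 4 siNT libraries. In both, as in DDIT4, the second vehicle library was the lowest of its group. Without that library 31 members fell, without the first vehicle library 22 did, and 18 did when libraries were weighted by their spread. With those weights the list was no longer first. There 17 of 35 genes of sterol and fatty acid synthesis fell, and 27 of 56 of squamous differentiation and desmosomes. SLC7A5, a subunit of the leucine transporter, was more even, with 23590.5, 20565 and 27276 in vehicle and 6715, 6835 and 7263 with doxorubicin (log2 fold change −1.76, SE 0.12, adjusted p = 8.8e-08). ATF3, which ATF4 and stress kinases are known to raise, was the member that rose, from 686, 220.1 and 759 to 2395, 2525 and 2237 (log2 fold change 2.16, SE 0.32, adjusted p = 5.8e-05).

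The letters TGATGNAAN, the core of the element at which ATF4 binds with C/EBP partners, were searched in the same way. They were in 3.61% of all promoters and 2.76% of the listed genes with an entry, and 16 of 37 list members with an entry had them. These were 10 of the 19 that fell, 5 of the 17 not called and the 1 that rose. The windows of 2 members that fell and of ATF3 are shown because they hold the same letters on either strand, in capitals, while their genes moved in opposite directions.
CHAC1, chr15:40953251-40953279, + strand: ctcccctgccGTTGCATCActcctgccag
GARS1, chr7:30594834-30594862, + strand: ttacgcggcgATTTCATCAtgctccgagc
ATF3, chr1:212565206-212565234, + strand: aaggtcaggaTGATGGAAGgctgtcatat

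Among genes that make protein, aminoacyl-tRNA synthetases and cytosolic ribosomal protein genes fell more often than the background. The synthetases AARS1, GARS1, IARS1, MARS1 and NARS1, which fell, are also members of the list of the integrated stress response, so these results overlap. Of 36 aminoacyl-tRNA synthetases, 12 fell (33.3%, 8 when scaled to total reads) and none rose, and EPRS1, the fused synthetase for glutamate and proline, went from 10721, 9808 and 12467 to 2465, 2799 and 3268 normalized reads (log2 fold change −1.93, SE 0.13, adjusted p = 7e-08). Of 86 cytosolic ribosomal protein genes, 28 fell (32.6%) and none rose, with a median of −0.59. This count moved with single libraries, to 18 without the first vehicle library and 17 without the second doxorubicin library, and to 13 under total-read scaling. Among the 588 coding genes averaging 5000 normalized reads or more, 21.6% fell, and the list was not compared with genes of like level. RPL3 had 25124, 19819 and 20366 in vehicle and 6087, 5411 and 6221 with doxorubicin (log2 fold change −1.87, SE 0.15, adjusted p = 3.2e-07), and RPS2 was not called (log2 fold change −0.12, SE 0.18, adjusted p = 0.59). Of 69 genes of ribosome biogenesis, 11 fell (15.9%, 7 when scaled to total reads), near the 13.6% of genes over the mean of 50, and 1 rose, BOP1 being among those that fell (−1.59). Of 77 mitochondrial ribosomal protein genes, 11 fell (14.3%, also near that share) and 2 rose, against 9 and 3 when scaled to total reads. Their median of −0.16 became 0.07 under that scaling. The 15 mitochondrially encoded genes gave no call, and the 19 such genes of the table took 1.74, 2.89 and 3.66% of the reads in vehicle and 3.57, 2.62 and 3.52% with doxorubicin.

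Many splicing regulators fell. Of 35 SR and hnRNP proteins, 17 fell (48.6%, 10 when scaled to total reads) and none rose, with a median of −0.74. SRSF1 went from 2464, 2434 and 2341 to 504, 529 and 712 normalized reads (log2 fold change −1.97, SE 0.14, adjusted p = 1.4e-07), and HNRNPA1 from 20346, 18676 and 17584 to 5443, 6023 and 7256 (log2 fold change −1.60, SE 0.14, adjusted p = 6.5e-07). Of 47 spliceosome core genes, 6 fell (12.8%) and none rose, near the background (4 and 2 when scaled to total reads), and the difference between the lists was not tested. Genes of transcription itself were mostly not called, with 3 of 40 RNA polymerase II and elongation genes higher and 1 lower (6 and 1 under total-read scaling). The number lower was 4 without the third vehicle library, and 3 without the second vehicle library or without the first or the third doxorubicin library. The exceptions included POLR2A, which encodes the largest subunit of the polymerase, with 2152, 4419.6 and 5509 in vehicle and 19512, 26351 and 19124 with doxorubicin (log2 fold change 2.50, SE 0.33, adjusted p = 2.3e-05), and HEXIM1, an inhibitor of the elongation kinase P-TEFb, with 1002, 1212 and 915 and 4051, 3972 and 2912 (log2 fold change 1.75, SE 0.15, adjusted p = 6.6e-07).

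Genes of lipid and redox metabolism fell more often than the background. Of 35 genes of sterol and fatty acid synthesis, 16 fell (45.7%, 12 when scaled to total reads) and 3 rose, with a median of −0.67. SCD, the desaturase that makes monounsaturated fatty acids, went from 14718, 16314 and 19348 to 4141, 4548 and 5079.5 normalized reads (log2 fold change −1.85, SE 0.14, adjusted p = 2e-07), and fatty acid synthase, FASN, went from 6054, 8516 and 6640.3 to 1936, 2164 and 1415 (log2 fold change −1.92, SE 0.23, adjusted p = 8.8e-06). IDI1, ACLY and TM7SF2 of the same list rose, IDI1 from 3856, 3920.2 and 3552 to 7355, 7476 and 7369 (log2 fold change 0.96, SE 0.10, adjusted p = 2.7e-06), and TM7SF2 lost its call without the third vehicle or the third doxorubicin library. Of 37 NRF2 targets and antioxidant enzymes, 11 fell (29.7%, 5 when scaled to total reads) and 1 rose, and catalase, CAT, went from 11289, 12282 and 14392 to 4264, 4083 and 6126 (log2 fold change −1.40, SE 0.15, adjusted p = 5e-06). Of 27 genes of polyamine and folate metabolism, SLC19A1 included, 6 fell (22.2%) and 1 rose, against 3 and 2 under total-read scaling. Of 42 genes of glycolysis and hypoxia, 13 fell (31.0%) and 6 rose (14.3%). The hypoxia targets split, with CA9 falling (−1.45) and EGLN3, an oxygen sensor, rising from 173, 147 and 113 to 1162, 1073 and 897 (log2 fold change 2.50, SE 0.13, adjusted p = 1.6e-08).

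Epithelial and squamous genes also fell more often than the background. Of 56 genes of squamous differentiation and desmosomes, 21 fell (37.5%) and 3 rose (1 without the first vehicle library), with a median of −0.64. Keratin 4, KRT4, went from 2993, 2914 and 3399 to 693, 573 and 744 normalized reads (log2 fold change −2.13, SE 0.18, adjusted p = 5.9e-07) and plakophilin 3, PKP3, from 1898, 1695 and 1345 to 436, 389 and 417 (log2 fold change −1.85, SE 0.14, adjusted p = 2.1e-07), while the transcription factor OVOL1 rose 3.47-fold (log2 fold change 1.68, SE 0.11, adjusted p = 5e-08). Of 23 basal and luminal markers, 9 fell (39.1%) and 1 rose (3 under total-read scaling and 2 without the first vehicle library). The 1 that rose was PGR, from 0 to 18.5, 12.2 and 9.12 normalized reads. TP63, a master factor of basal epithelium, went from 4185, 3736 and 6589.8 to 1152, 1452 and 2054 (log2 fold change −1.60, SE 0.22, adjusted p = 3.5e-05), KRT5 ended at 7659, 8316 and 10476 (log2 fold change −1.24, SE 0.15, adjusted p = 1.3e-05) and KRT14 at 2742, 2515 and 2125 (log2 fold change −1.26, SE 0.16, adjusted p = 1.5e-05). KRT17 was not called (log2 fold change −0.01, SE 0.16, adjusted p = 0.96), nor was EPCAM (log2 fold change −0.04, SE 0.14, adjusted p = 0.84). The integrin ITGB4 of hemidesmosomes fell 3.25-fold (log2 fold change −1.68, SE 0.13, adjusted p = 3.1e-07), as did its partner ITGA6 (−1.20). The integrins were split, however, since 6 of 17 fell (35.3%) and 5 rose (29.4%). Of 24 S100 and annexin genes, 10 fell (41.7%) and none rose, against 8 and 1 under total-read scaling. Without the first vehicle library, and with library weights, 1 rose as well.

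Genes of drug handling, cell death and protein quality control gave mixed calls. ABCB1, the best known anthracycline efflux pump, was not among the listed genes. Of 25 genes of topoisomerases and anthracycline handling, 4 fell (16%) and 2 rose (8%), a balance that total-read scaling turned to 3 and 4, and 1 rose without the second or the third vehicle library or the first doxorubicin library. Those that fell include the export pump ABCC2 (5606, 6667 and 7066 in vehicle and 2852, 3260.5 and 3379 with doxorubicin, log2 fold change −1.01, SE 0.14, adjusted p = 3.6e-05) and those that rose the carbonyl reductase CBR3, which can reduce doxorubicin, with 474, 424 and 275 and 1009, 866 and 674 (log2 fold change 1.04, SE 0.18, adjusted p = 0.00019). In the BCL2 family the pro-apoptotic BMF (1.504), BCL2L11 (1.47) and PMAIP1 (1.21) rose, while pro-apoptotic BAD (−0.92) and BAK1 (−0.84) and anti-apoptotic BCL2L2 (−1.01) fell. BAD lost its call without any 1 of 3 siNT libraries, and BAD and BAK1 lost it under total-read scaling. MCL1 and BCL2L1, which protect cells, were not called (0.08 and −0.19). Of 61 lysosome and autophagy genes, 11 rose (18.0%, 18 under total-read scaling) and none fell (3 on the log2 scale of normalized reads plus 1, 2 without the second or the third vehicle library, 1 without the first or the second doxorubicin library), and the autophagosome protein gene GABARAPL1 went from 1092, 779.7 and 1136 to 2648, 3066 and 2662 (log2 fold change 1.44, SE 0.13, adjusted p = 8.9e-07). Of 69 heat shock proteins and co-chaperones, 10 rose (14.5%) and 8 fell (11.6%), near the background shares, against 13 and 5 under total-read scaling. The small heat shock protein HSPB8 rose 3.39-fold (log2 fold change 1.73, SE 0.11, adjusted p = 4.2e-08), and the abundant chaperones HSP90AA1 (114523, 114836 and 84145 in vehicle and 32268, 30059 and 35041 with doxorubicin, log2 fold change −1.67, SE 0.16, adjusted p = 1.2e-06) and HSPA5 (−1.57) fell.

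The same drug in siMLK4 cells was used only to see where this response differed. MAP3K21 itself had 553, 669.6 and 674 normalized reads in siNT vehicle libraries and 758, 856 and 772 with doxorubicin, not called (log2 fold change 0.31, SE 0.12, adjusted p = 0.042), and means of 95.5 ± 7.31 and 115 ± 22.1 (SD, n = 3) in siMLK4 cells. The interaction of siRNA and drug was called for 47 of 17013 genes (0.276%), 31 of which were also called in siNT cells. The count was unstable, at 0 to 37 when 1 library was left out and 542 with library weights, and no gene was called without the first siMLK4 doxorubicin library, ID2 and MIR130AHG included. The interaction is the log2 response in siMLK4 cells minus that in siNT cells. For ID2 it was −1.23, SE 0.17, adjusted p = 0.0043, with 424 ± 57.7 normalized reads in siMLK4 vehicle cells and 1519 ± 138 with doxorubicin (SD, n = 3). For MIR130AHG it was −1.30, SE 0.18, adjusted p = 0.0038, with 6.43 ± 2.35 and 103 ± 22.05. IL6 missed the threshold (−1.72, SE 0.29, adjusted p = 0.011), with 1.75 ± 1.64 in siMLK4 vehicle cells and 109.9 ± 55.8 with doxorubicin. The log2 responses of POLR2A (−0.59, SE 0.47, adjusted p = 0.63) and TEX14 (0.20, SE 0.35, adjusted p = 0.86) did not pass the test of a difference.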

How the data were processed

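According to the study's methods and the labels, reads were trimmed (Trimmomatic 0.39) and aligned (HISAT2) by the authors, who then removed optical duplicates, counted them by strand with HTSeq 0.6.0 and processed counts in DESeq2 1.26.0. The methods name GRCh38 as the genome, and the labels hg19. The deposited values are variance-stabilized, on a log2 scale. Inverting the transformation gave whole reads (within 0.05) for 100% of values and the authors' size factors. Of 17013 genes, 16957 matched GENCODE 44 (GRCh38), which gave names, types, exons and coordinates. The floor of 3 reads covers counting error only.

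Tests used limma 3.58.1 (R 4.3.3) with a variance trend on the deposited values, 12 libraries and 4 group means in 1 fit, and p-values were adjusted over all genes. The code was tested on simulated data. Equally numbered vehicle and doxorubicin libraries deviated together (correlations 0.46, 0.105 and 0.205, each over 0.1), although vehicle 3 correlated more with doxorubicin 2 (0.308) than with its own number, and their numbers were taken as pairs by the rule, from the values alone, and used as a block in an alternative. Replicates differed beyond sampling noise, and more so in vehicle (chi-square per degree of freedom 19 to 60.8) than with doxorubicin (12.5 to 17.4).

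The 51 gene lists, the members and the tests were chosen with earlier results of these data known, so they are not independent of them. Named are a preset list of genes, the 12 coding genes and 5 lncRNAs with the highest and the lowest fold change among called genes that averaged 100 normalized reads or more in a compared group and without overlap between the groups (62.4% of all genes do not overlap), and for each list the 3 highest and 3 lowest called members and the 2 most abundant, besides cell type markers. Some names were left out for length, and some genes and a list are not reported here. Bins of exon number and lncRNA position, the mean of 50 over all libraries, and the differences within pairs were chosen after seeing the data.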

Additional observations from a re-analysis of the deposited data

Results flagged for a closer look

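The response of 2 named genes to doxorubicin differed between siNT and siMLK4 cells by the interaction test in limma. ID2 had an interaction of −1.23, SE 0.17, adjusted p = 0.0043, since it rose by 2.95 on the log2 scale in siNT cells and by 1.73 in siMLK4 cells. By the levels given above, ID2 was higher in siMLK4 than in siNT vehicle cells, and its mean with doxorubicin was not lower in siMLK4 cells. MIR130AHG had an interaction of −1.30, SE 0.18, adjusted p = 0.0038, with 3.09 in siNT cells and 1.80 in siMLK4 cells, and its level with doxorubicin was lower in siMLK4 cells. In both genes all 3 doxorubicin libraries lay above all 3 vehicle libraries in siNT cells, as the rule by which they were named required. No interaction was called for any gene without the first siMLK4 doxorubicin library, where 1856 genes had an unadjusted p under 0.05, against 2469 with all libraries.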

How the results depend on the processing

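The directions of the calls in siNT cells were most sensitive to scaling. With libraries scaled to total reads, 2859 genes were higher and 1094 lower (72.3% of the calls higher, against 53.4%), with 1036 coding genes and 44 lncRNAs lower, and 25 named genes lost their call. On the log2 scale of normalized reads plus 1, 3192 genes were higher, and lncRNA calls came to 1005 higher and 169 lower. With 10 added they were 907 and 155, and with limma-voom on recovered reads 955 and 154. A minimum of 50 normalized reads left 279 lncRNAs higher, since fewer genes were tested, and a mean of 50 over all libraries, chosen after seeing the data, left 1297 genes and 187 lncRNAs higher and 42 lncRNAs lower. An adjusted p under 0.05 without a fold threshold gave 5029 higher and 4716 lower, with 3511 and 4254 coding genes and 1242 and 301 lncRNAs, and a log2 fold change over 1 gave 1101 and 977, with 772 and 931 coding genes and 281 and 35 lncRNAs. Genes that differed from the siMLK4 response numbered 204 at that looser threshold, 542 with library weights and 29 with limma-voom. The cause of these changes was otherwise not tested.

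Leaving out 1 library at a time gave 1907 to 2245 genes higher and 1681 to 1941 lower, 1339 to 1510 and 1593 to 1833 coding genes, and 480 to 619 and 64 to 83 lncRNAs. It gave 0 to 37 genes that differed from the siMLK4 response. For the difference in median fold change between the longest and shortest of all listed coding genes it gave −0.23 to 0.03, against −0.10 with all libraries. With the replicate number as a block, siNT libraries alone gave 2065 higher and 1816 lower. All 12 libraries gave 2059 and 1795, with 40 genes that differed from the siMLK4 response. The block over all 12 libraries ended the call of 2 named genes and added 1, and that over the siNT libraries added 1.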

Other observations

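Gene families outside the comparisons above also held called genes in siNT cells, to be read beside the 12.1% of all genes that rose and the 10.6% that fell. Of 206 zinc finger genes on chromosome 19, 25 rose (12.1%, like the background) and 7 fell (3.40%; 38 and 5 under total-read scaling), with a median log2 fold change of 0.23, and ZNF844 went from 151, 119 and 98.8 to 610.0, 630.1 and 510.0 normalized reads (log2 fold change 1.88, SE 0.13, adjusted p = 1.1e-07). Of 225 zinc finger genes on other chromosomes 23 rose (10.2%) and 15 fell (6.67%), against 37 and 8 when scaled, with a median of 0.11. Of 21 circadian clock genes, 2 rose (9.52%) and 3 fell (14.3%), against 3 and 2 when scaled. Among them, the activator BMAL1 rose from 245, 214 and 275 to 858, 898 and 625 (log2 fold change 1.504, SE 0.18, adjusted p = 8.8e-06). Its relative BMAL2 went from 7424, 7789.5 and 8013 to 3127, 3528 and 3678 (log2 fold change −1.16, SE 0.10, adjusted p = 8.5e-07). Of 32 receptor tyrosine kinases, 6 rose (18.75%) and 3 fell (9.375%), against 10 and 1 when scaled, EPHA4 going from 78.7, 97.6 and 117 to 698, 862 and 577 (log2 fold change 2.37, SE 0.19, adjusted p = 2.8e-07) and EGFR from 4218, 5939 and 8399 to 1792, 2639 and 2636 (log2 fold change −1.34, SE 0.24, adjusted p = 0.00028). In the death receptor list, 7 of 30 members rose (23.3%) and 3 fell (10%), against 7 and 1 when scaled, with NGFR going from 59.9, 61.3 and 52.8 to 393, 377 and 337 (log2 fold change 2.001, SE 0.13, adjusted p = 6e-08), and TNFRSF1B rising 4.34-fold (log2 fold change 1.74, SE 0.13, adjusted p = 1.4e-07).

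Of 31 small nucleolar RNA host genes, 7 fell (22.6%) and 3 rose, and SNHG4 went from 446, 423 and 356 to 63.7, 73.3 and 85.2 normalized reads (log2 fold change −1.91, SE 0.12, adjusted p = 4.2e-08). Of 96 chromatin modifiers 10 fell (10.4%, like all genes) and 4 rose (4.17%, below all genes). The counts were 4 and 11 when scaled to total reads, and 2 were higher without the second vehicle library. EZH2, the methyltransferase of Polycomb, rose from 626, 575 and 668 to 1332, 1438 and 1128 (log2 fold change 1.00, SE 0.13, adjusted p = 2e-05). Of 62 cilium and dynein genes, 12 fell (19.4%) and 11 rose (17.7%), turned to 7 and 12 by total-read scaling. Of 46 cadherin family genes 9 fell (19.6%) and 7 rose (15.2%), against 7 and 7 when scaled. Epithelial integrins were split, with 5 of 17 higher (29.4%) and 6 lower (35.3%), against 5 and 5 when scaled. Of 83 respiratory chain genes, 2 rose and 5 fell (3 and 1 when scaled, 3 lower without the first vehicle library and 8 without the third, and 1 higher without the second or the third vehicle library or the first doxorubicin library), of 51 translation initiation factors 2 and 5 (3 and 3, and 3 lower without the first doxorubicin library or with library weights), and of 46 proteasome subunits 1 and 4 (2 and 3). In the main fit these shares were 2.41 and 6.02%, 3.92 and 9.80%, and 2.17 and 8.70%, all below those of all genes. Of 26 YAP/TAZ targets 7 rose and 3 fell (7 and 0 when scaled, and 1 lower without the first doxorubicin library), and of 46 matrix proteases and plasminogen activation genes 6 and 5 (8 and 3). Of 39 collagen and laminin genes, 3 rose (7.69%) and 5 fell (12.8%), a balance that total-read scaling turned to 6 and 2. In that list 2 of the 3 rises started from at most 3 reads in each vehicle library, and none of the 28 members over the mean of 50 rose. On the log2 scale of normalized reads plus 1, which compresses low levels less, more genes passed in general, with 3192 of all 17013 genes higher and 2399 lower. Beside these totals, the counts were 43 higher and 11 lower for zinc finger genes on chromosome 19, 35 and 25 for those elsewhere, 11 and 5 for receptor tyrosine kinases, 7 and 6 for death receptors, 7 and 18 for cadherins, 8 and 8 for collagens and laminins, and 10 and 8 for proteases. The rise in calls is thus not particular to these lists.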
